A study of Mus musculus with 8 samples.

Results

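Peroxiredoxins, superoxide dismutases, catalase and glutathione peroxidase 1 were followed in cultured cells labelled as endothelial cells of the mouse aorta. Endothelial cells form the inner lining of that vessel. The genes were Prdx2, Prdx3, Prdx4, Prdx5, Prdx6, Sod1, Sod2, Sod3, Cat and Gpx1, and their probe sets were those annotated to exactly 1 gene symbol that was 1 of these 10. This gave 11 probe sets for 8 of the 10 genes, out of 8251 genes and 10833 probe sets with 1 symbol among the 12488 on the array. Prdx5 and Prdx6 had no such probe set and are not analysed here. RNA came either from a mature confluent monolayer (Confluent, 4 arrays) or from cultures grown to less than 50% confluency (Subconfluent, 4 arrays), with the same number of cells used for every array. The labels number the arrays of both groups as experiments 1 to 4, and they give no genotype, strain, age or treatment for either group. Nothing beyond these numbers says that the arrays of a group came from separate cultures, so the p-values measure the spread between arrays.

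These enzymes remove the superoxide and hydrogen peroxide that respiration, oxidases and protein folding produce. Superoxide dismutases turn superoxide into hydrogen peroxide and differ in place: Sod1 is the copper and zinc enzyme of the cytosol, Sod2 the manganese enzyme of the mitochondrial matrix, and Sod3 a copper and zinc enzyme secreted to the extracellular matrix, where in the vessel wall it protects nitric oxide. Hydrogen peroxide is then reduced by peroxiredoxins, which draw on thioredoxin, by Gpx1, a selenium enzyme that uses glutathione, or is broken down by catalase in peroxisomes.

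Signal is a linear value per probe set that the authors scaled to a common target on each array, so it compares 1 probe set between arrays and not 1 gene with another. A probe set was tested when its mean signal over the 8 arrays was at least 200. This held for 6007 of the 12422 probe sets of the series without controls, and for 9 of the 11 here. Differences are log2 of signal plus 50, Subconfluent minus Confluent, which understates the fold of weak probe sets. Median signals of 169 to 187 were reached on the 8 arrays with scale factors between 3.05 and 13.3. Of the labelled cell type's markers, 1 of 15 on the array (Eng) reached a mean of 200; Pecam1, Cdh5, Kdr and Tek were below it, and no marker was listed at 0. The summed signal of the endothelial markers was 1530 to 2023 on Confluent and 1338 to 1779 on Subconfluent arrays. These markers do not bear out the label. Of the fibroblast and pericyte markers, 9 of 13 reached the minimum, with summed signals of 57837 to 83544 on Confluent and 28405 to 42227 on Subconfluent arrays. Of the smooth muscle markers, 4 of 8 reached it, close to the share over all probe sets, with sums of 3606 to 5570 and 2323 to 10723. Macrophage markers reached it in 2 of 11 cases (sums of 2818 to 4143 and 2145 to 2810), red blood cell markers in 1 of 7 (784 to 890 and 648 to 992) and epithelial and mesothelial markers in 2 of 8 (1943 to 5488 and 1629 to 2416). These sums add different genes, so they compare arrays within a list and not 1 list with another. At an adjusted p under 0.05 in limma without a block, 4 of the 9 fibroblast and pericyte markers tested fell. Of the 4 smooth muscle markers tested 1 fell. In both lists 0 rose, and over all tested probe sets 4.06 percent fell and 2.75 percent rose. Whether these other cell types have a part in the differences described here was not tested.

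Between the growth states, no gene of the family passed the test at an adjusted p under 0.05 in limma without a block. The count was 0 of 9 probe sets higher and 0 of 9 lower, against 2.75 percent of all tested probe sets higher (165) and 4.06 percent lower (244), a split that median centring turned to 237 higher and 211 lower. The 2 smallest unadjusted p-values in limma were those of Prdx3 (higher, 0.0123) and Sod2 (lower, 0.0130), both enzymes of the mitochondrial matrix. With the experiment number as a block, the same 2 passed, 1 of 9 higher and 1 of 9 lower, against 9.94 percent and 11.3 percent of all tested probe sets. Their groups of 4 values did not overlap, which in all tested probe sets happened in 8.34 percent (Subconfluent higher) and 8.54 percent (Subconfluent lower). The shares in the family are close to those backgrounds, so nothing particular to the family is read from them. Over the 8 genes, with 1 probe set each, the median log2 difference was -0.05 and the median size of the difference 0.16, against 0.01 and 0.25 over all tested probe sets. In cultured bulk samples, fewer cells of a type and less RNA per cell cannot be told apart.

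**Figure D1:**
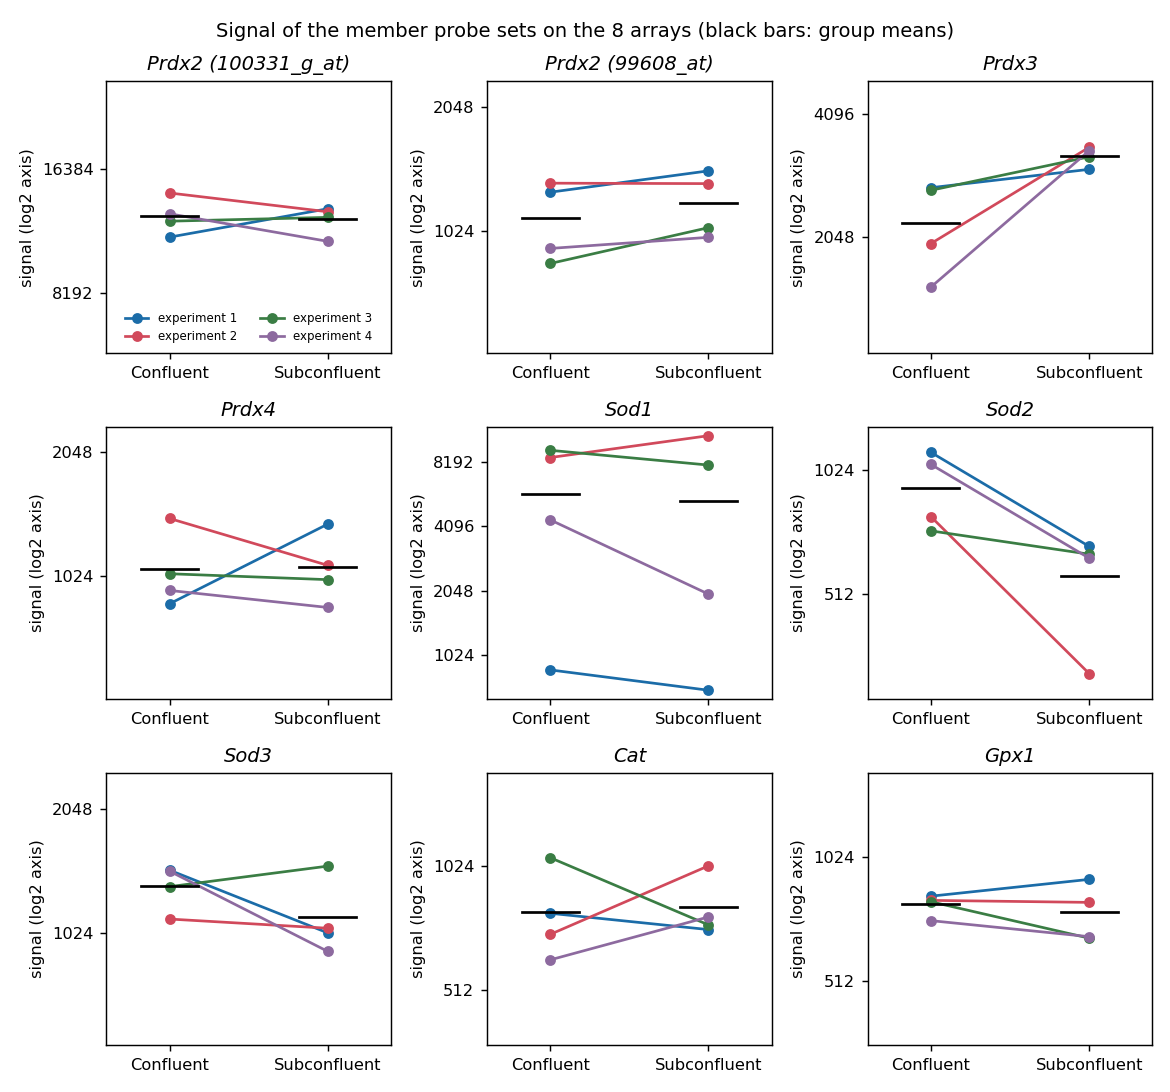
Signal of the 9 tested probe sets (log2 vertical axis, in signal units) on Confluent and Subconfluent arrays, with lines joining arrays of the same experiment number and black bars at the group means. All 4 lines of Prdx3 go up and all 4 of Sod2 go down, while Sod1 is spread by experiment, from 705 to 10867.

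Prdx3 is the peroxiredoxin of the mitochondrial matrix, where it removes hydrogen peroxide with electrons from thioredoxin 2. Its signals were 2706.9, 1979.9, 2667.5 and 1551.8 on Confluent arrays 1 to 4 and 2999.8, 3393.7, 3218.1 and 3330.4 on Subconfluent arrays 1 to 4. Every Subconfluent value lay above every Confluent value, and the Subconfluent values were closer together, with a mean ± SD of 3236 ± 173 against 2227 ± 560 (n = 4 each). The log2 difference was 0.56 ± 0.19 (SE), a fold of 1.48 with a 95% interval from 1.11 to 1.97, and limma gave an adjusted p of 0.0902 without a block and 0.0445 with the experiment as a block. It was 0.15, 0.76, 0.27 and 1.08 in experiments 1 to 4, higher in 4 of 4. Most of the size came from experiments 2 and 4, in which the Confluent signal was low. Confluent 2 and Confluent 4 were the only arrays of chip lot B, which held no Subconfluent array. For these values lot and growth state cannot be told apart. The call with the block was kept without pair 1 (adjusted p = 0.0433) and lost without pair 2 (0.111), pair 3 (0.0791) or pair 4 (0.186). Within chip lots the difference was 0.15 in lot A (1 array against 1) and 0.29 in lot C (1 against 2), and 0.23 with the lot as a fixed block (adjusted p = 0.440), less than the 0.56 over all arrays.

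Sod2 makes hydrogen peroxide from superoxide in the same compartment, and it is known as a gene that inflammatory signals induce in endothelium. Its signals were 1132.2, 789.7, 729.4 and 1058.1 on Confluent arrays 1 to 4 and 668.7, 328.0, 640.1 and 626.1 on Subconfluent arrays 1 to 4. Every Subconfluent value lay below every Confluent value, although the highest Subconfluent and lowest Confluent values were near each other. Subconfluent 2 stood apart at the bottom. That array was the only 1 of chip lot D and had the highest scale factor, 13.3, against 3.05 to 8.99 on the others. Whether lot or scaling has a part in its low value was not tested. The means ± SD were 927 ± 198 and 566 ± 159 (n = 4 each), the log2 difference was -0.69 ± 0.23 (SE), and the 95% interval ran from -1.20 to -0.18. On this scale Sod2 was 1.61-fold lower, with an adjusted p of 0.0919 in limma without a block and 0.0221 with the experiment as a block. It was lower in 4 of 4 experiments, by log2 differences of -0.72, -1.15, -0.18 and -0.71. The call with the block was kept without pair 3 (adjusted p = 0.0260) and lost without pair 1 (0.0774), pair 2 (0.0516) or pair 4 (0.0805). Leaving out Subconfluent 2 from the fit without a block gave a log2 difference of -0.47 (adjusted p = 0.184). The difference was -0.72 in lot A, -0.19 in lot C and -0.42 with the lot as a fixed block (adjusted p = 0.230).

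**Figure D2:**
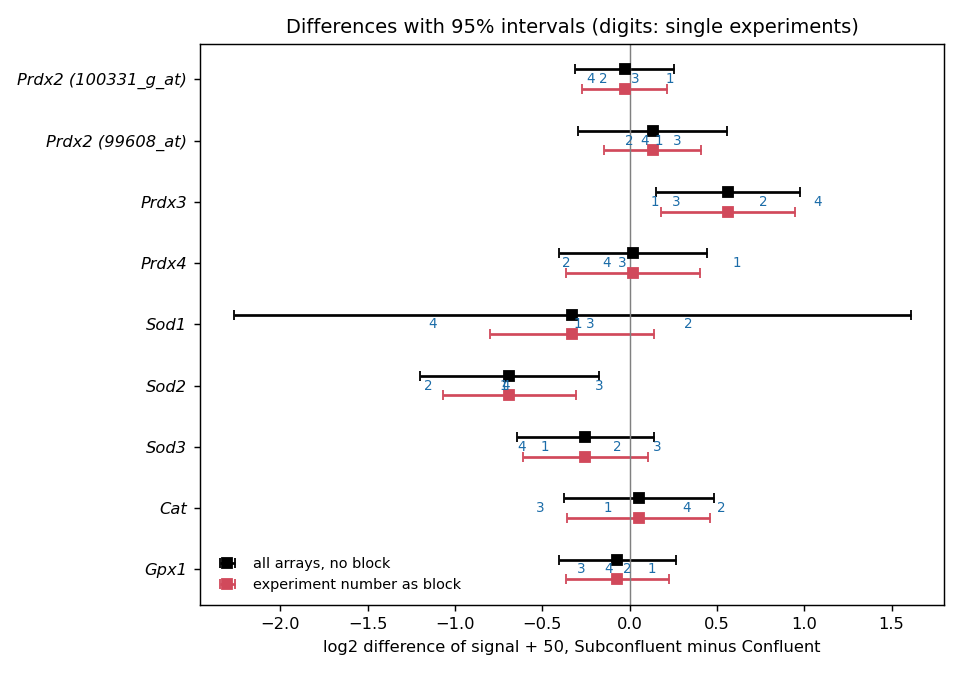
Log2 difference of signal plus 50, Subconfluent minus Confluent (horizontal axis), for the 9 tested probe sets, with squares for the estimate, bars for 95% intervals without a block (black) and with the experiment number as a block (red), and digits for single experiments. The intervals of Prdx3 and Sod2 leave out 0 in both fits, and that of Sod1 runs from -2.27 to 1.61 without the block and from -0.80 to 0.14 with it.

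The other peroxiredoxins tested in the family, Prdx2 and Prdx4, had intervals that included 0. Prdx2, an abundant cytosolic peroxiredoxin, has 3 probe sets. The one with the strongest signal, 100331_g_at, whose name marks a sequence common to a group of transcripts, read 11188.1, 14325.9, 12232.9 and 12751.4 on Confluent arrays and 13115.1, 12895.4, 12497.2 and 10926.4 on Subconfluent arrays. The groups overlapped throughout, and the log2 difference was -0.03, with a 95% interval from -0.31 to 0.26 (adjusted p = 0.923). The sign of this value turned under median centring, to 0.02. Its spread within groups was an SD of 0.13 on the log2 scale, at the 5.23rd percentile of tested probe sets, so it was among the steadier ones of the array.

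Probe set 99608_at of Prdx2 read 1271.3, 1337.2, 852.8 and 927.8 on Confluent arrays and 1432.7, 1333.9, 1042.3 and 987.4 on Subconfluent arrays. Here the groups overlapped too, arrays of experiments 1 and 2 being higher than those of 3 and 4 in both growth states, and the log2 difference was 0.13 (95% interval from -0.30 to 0.56, adjusted p = 0.728). The last Prdx2 probe set, 100330_at, read 2.3 to 10.3 and was not tested. Prdx4, the peroxiredoxin of the endoplasmic reticulum, which passes oxidation on to folding enzymes, read 877.3, 1414.5, 1037.9 and 945.3 on Confluent arrays and 1370.9, 1087.9, 1004.2 and 859.3 on Subconfluent arrays. The groups overlapped, with a log2 difference of 0.02 (95% interval from -0.41 to 0.45, adjusted p = 0.968). Experiment 1 gave 0.62 and the other experiments -0.36, -0.05 and -0.13, so the sign over all arrays rested on experiment 1. Without experiment 1 the log2 difference was -0.18.

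Sod3 was lower in 3 of 4 experiments without passing. It read 1452.9, 1105.0, 1324.9 and 1444.7 on Confluent arrays and 1022.5, 1049.6, 1486.3 and 921.7 on Subconfluent arrays, so 3 Subconfluent values lay below all Confluent ones and the highest value of all was Subconfluent 3. The log2 difference was -0.25, with a 95% interval from -0.65 to 0.14 (adjusted p = 0.412), which takes in differences of both signs.

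Catalase and Gpx1, the remaining peroxide-removing enzymes, overlapped between growth states. Cat probe set 161877_f_at, named for sequence shared in a family, read 787.8, 700.2, 1075.6 and 607.0 on Confluent arrays and 719.1, 1027.7, 738.2 and 771.9 on Subconfluent arrays. The log2 differences of the experiments were -0.12, 0.52, -0.51 and 0.32, both signs with like sizes, and over all arrays the difference was 0.05 (95% interval from -0.38 to 0.48, adjusted p = 0.904). In lot C alone it was -0.48. The other Cat probe set, 160479_at, had a mean below 200 and was not tested. It read 221.8, 113.2, 116.8 and 163.4 on Confluent and 173.7, 148.3, 100.9 and 136.8 on Subconfluent arrays, also overlapping. Gpx1 read 824.3, 805.1, 798.9 and 718.7 on Confluent arrays and 905.6, 796.1, 651.5 and 657.1 on Subconfluent arrays. The Confluent values were close together (787 ± 46.6, SD, n = 4), the Subconfluent ones wider (753 ± 122) and on both sides of them. The log2 difference of Gpx1 was -0.07 (95% interval from -0.41 to 0.27, adjusted p = 0.827), a fold from 0.754 to 1.20.

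Sod1 varied mainly between experiments. Its signals were 876.9, 8594.2, 9288.7 and 4397.5 on Confluent arrays 1 to 4 and 704.8, 10866.7, 7925.9 and 1980.3 on Subconfluent arrays 1 to 4. Both arrays of experiment 1 were the lowest, both of experiment 4 came next, and those of experiments 2 and 3 were high in both growth states. The range over the 8 arrays was 15.4-fold and the range of experiment means 11.6-fold. An F test of the experiment number in the fit with the block, chosen after the values were seen, gave 63.6 with an adjusted p of 0.00254, the 6th highest F of 6007 probe sets. Sod1 was the 1 of 9 probe sets of the family that passed this test, against 3.20 percent of all tested probe sets. The adjusted p of the others ran from 0.150 to 0.707, and the ranges of their experiment means from 1.15-fold to 1.64-fold.

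Set against that spread, the growth states gave a Sod1 log2 difference of -0.33 with a 95% interval from -2.27 to 1.61 (adjusted p = 0.865), and from -0.80 to 0.14 with the block (adjusted p = 0.293). The values in experiments 1 to 4 were -0.30, 0.34, -0.23 and -1.13. The within-group SD of 1.67 on the log2 scale was at the 99.9th percentile of tested probe sets. Leaving out single arrays without a block moved the difference from -1.06 (without Confluent 1) to 0.39 (without Subconfluent 1), and without Confluent 2 or Confluent 3 it was 0.0094 and 0.05, so its sign depends on single arrays. Experiment 1 was hybridised to the arrays of lot A and no other experiment was, so for it experiment and lot cannot be told apart.

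Other probe sets shared the pattern of Sod1 over the 8 arrays. The most alike genes, found after the values of Sod1 were seen, were Sdc4 (r = 0.996), a heparan sulphate proteoglycan of the cell surface, Uhmk1 (0.990), a kinase, and Rhoa (0.979), a small GTPase, on log2 values of 8 arrays, as a description with no test. Sdc4 read 566.6, 7520.0, 8790.0 and 3276.1 on Confluent and 549.3, 11086.8, 5903.5 and 1495.7 on Subconfluent arrays, the order by experiment seen for Sod1. In all, 15 of 5442 tested probe sets with 1 symbol reached an r of 0.95, each for a different gene. Of these genes 11 had other tested probe sets, 13 in all, whose r ran from -0.42 to 0.94 with a median of 0.48. The first probe sets were picked for a high r, so a lower r of the others is no test.

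Rhoa and Uhmk1 were among the genes with another probe set at a negative r. Rhoa probe set 101113_at went from 1117.1 to 6642.3, low in experiment 1, while 101112_g_at of the same gene stayed between 2396.8 and 3473.3 (r = -0.34). Uhmk1 went from 564.0 to 14011.4 by 160778_at and from 657.6 to 1287.1 by 96165_at (r = -0.42). Actb, by contrast, had another probe set that kept much of the pattern (r = 0.94), as did Otub1 (r = 0.87). The usual actin control probe sets of the array, given below, did not, with r of 0.18 to 0.25. For Sod1 itself 100538_at was the only probe set with 1 symbol, so Sod1 was read only once here.

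Control probe sets of the array moved with Sod1 as well. Those whose names mark the sense strand as target, which the labelled RNA should not match, had r of 0.92 to 0.96 with Sod1 for actin and 0.92 to 0.95 for Gapdh. The sense actin controls read 26.6 to 132.4 in experiment 1, 504.3 to 1919.2 in experiment 2, 457.4 to 718.9 in experiment 3 and 167.9 to 408.2 in experiment 4. The sense Gapdh controls read 31.2 to 208.2, 896.0 to 4038.9, 899.0 to 1548.8 and 221.7 to 504.6 in the same order, low in experiment 1 and high in experiments 2 and 3. The usual antisense-target controls had r of 0.18 to 0.25 for actin and 0.61 to 0.82 for Gapdh, and those of 18S RNA 0.69 to 0.87. The ratio of 3′ to 5′ control signal, a sign of RNA integrity, stayed between 0.913 and 1.13 for actin and between 0.781 and 0.851 for Gapdh on all 8 arrays. The part of what these controls record in the Sod1 pattern was not tested.

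**Figure D3:**
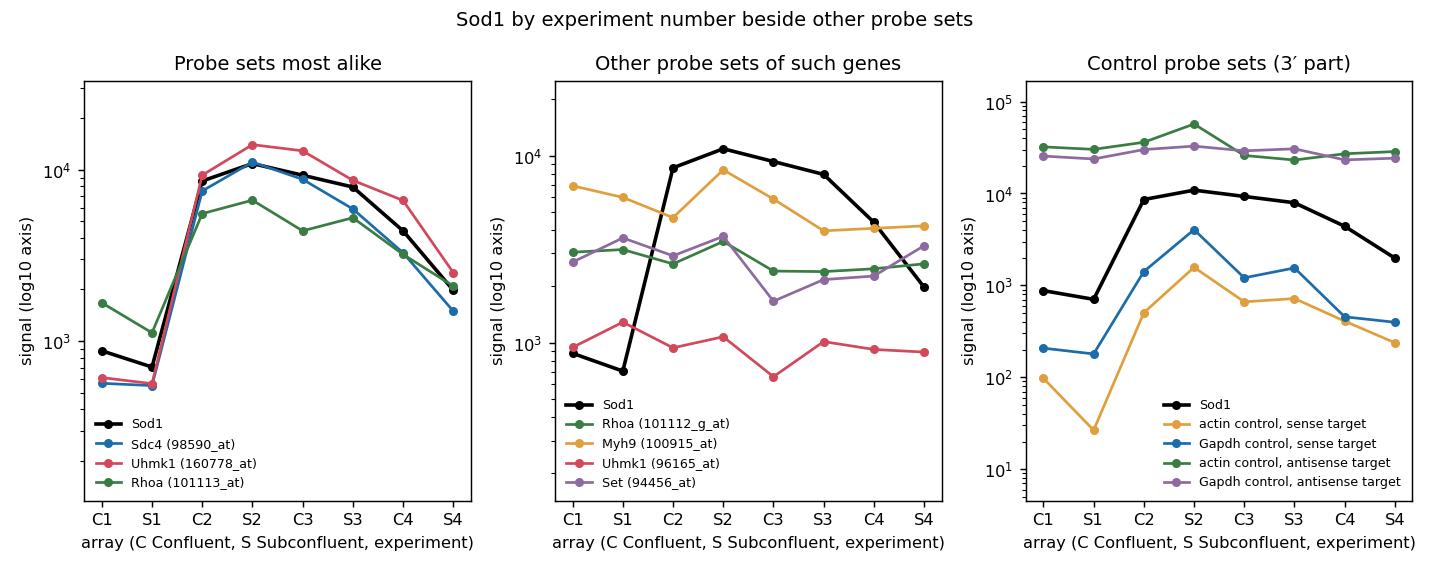
Signal on the 8 arrays (log10 vertical axis), ordered by experiment, for Sod1 (black) beside the 3 most alike probe sets (left), the 4 other probe sets of such genes whose r with Sod1 was below 0 (centre) and control probe sets (right). Sod1, its most alike probe sets and the sense-target controls are low on both arrays of experiment 1, whereas the drawn other probe sets of Rhoa, Uhmk1, Set and Myh9 are not. The left and centre sets were picked by their r, so this contrast is no test. The rest of the 13 other probe sets had r above 0 and are not drawn. Heights of different probe sets are not comparable.

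The genes most like Prdx3 and Sod2 were picked from many on 8 arrays, so a high r was in part a matter of selection. By the highest r over the 8 arrays among 4662 genes, Prdx3 was most like Wnt1 (0.93), a secreted signalling protein, Phlda3 (0.92), a target of p53, and Ehd1 (0.90), which acts in endocytic recycling. Sod2 was most like Meis1 (0.99), a homeobox factor, Chl1 (0.98), an adhesion molecule, and Etfb (0.97), the beta subunit of the mitochondrial electron transfer flavoprotein. The genes beside Sod2 were chosen after its values were seen, and these r are a description.

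The sequence before the transcription start was read for these 3 genes because 2 differed between growth states with the block and 1 differed between experiments. The windows are the 250 bases upstream of the RefSeq start in GRCm38.p6, Prdx3 at chr19:60874539-60874788 (minus strand), Sod2 at chr17:13007589-13007838 (plus strand) and Sod1 at chr16:90220512-90220761 (plus strand). They are written 5′ to 3′ on the gene's strand, and capitals mark the only match to either motif searched.
Prdx3: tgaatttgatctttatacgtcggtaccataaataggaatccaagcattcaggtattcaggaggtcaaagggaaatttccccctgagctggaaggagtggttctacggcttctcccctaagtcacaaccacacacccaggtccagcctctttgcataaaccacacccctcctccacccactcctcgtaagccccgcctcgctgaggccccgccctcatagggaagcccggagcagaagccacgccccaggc
Sod2: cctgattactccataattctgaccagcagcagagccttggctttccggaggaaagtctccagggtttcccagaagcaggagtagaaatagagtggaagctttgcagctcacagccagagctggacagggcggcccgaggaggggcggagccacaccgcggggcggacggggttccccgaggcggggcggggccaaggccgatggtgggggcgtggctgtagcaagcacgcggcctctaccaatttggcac
Sod1: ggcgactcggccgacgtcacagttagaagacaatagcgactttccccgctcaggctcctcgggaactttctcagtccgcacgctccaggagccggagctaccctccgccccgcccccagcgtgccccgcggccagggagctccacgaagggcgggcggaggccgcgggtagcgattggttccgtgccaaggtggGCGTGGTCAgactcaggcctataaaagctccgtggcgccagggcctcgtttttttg
The motifs were the antioxidant response core TGACNNNGC, bound by the NRF2 factor, and the FOXO core GTAAACA, on both strands. The Sod1 window holds the antioxidant core on its minus strand, starting 56 bases before the start, and the windows of Prdx3 and Sod2 hold neither. Of the 8 measured genes 7 have a window, of which 1 (Sod1) holds a match. Over all 32851 windows of the same length 10.2% hold the antioxidant core and 3.17% the FOXO core. A match describes letters and does not show a binding site.

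The enzymes around the family, in 5 lists of 97 gene symbols, were read for their recycling, supply and substrate. Of these, 67 were on the array and 47 were tested. Without a block 2 of 47 rose and 4 fell, against 2.75 and 4.06 percent of all tested probe sets. With the experiment as a block 4 rose and 10 fell, against 9.94 and 11.3 percent. The same shares are the background for the counts of single lists below. Those lists hold 7 to 14 tested genes, so nothing particular to a list is read from its count. The median log2 difference of the 47 was -0.03, against 0.01 over all tested probe sets. Leaving out experiment 1 without a block left 1 higher and 1 lower.

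**Figure D4:**
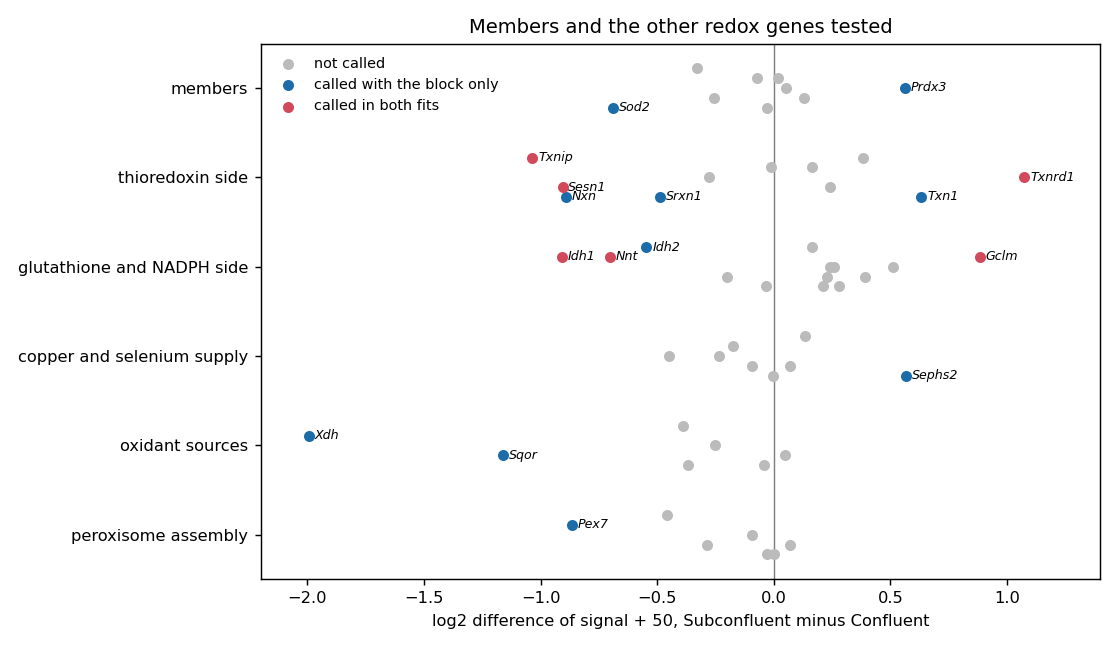
Log2 difference of signal plus 50, Subconfluent minus Confluent (horizontal axis), with 1 point per tested probe set of the family (top row) and per tested gene of the 5 surrounding lists (other rows, points shifted vertically only to separate them). Red points passed in both fits, blue points only with the experiment number as a block, and grey points in neither. Txnrd1 and Gclm lie to the right at 1.07 and 0.88, and Txnip, Sesn1, Idh1 and Nnt to the left between -1.04 and -0.70.

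On the thioredoxin side, which returns electrons to peroxiredoxins, 1 of 11 tested genes rose and 2 fell (2 and 4 with the block). Txnrd1, the cytosolic reductase of thioredoxin, read 975.0, 1355.4, 1480.2 and 2149.3 on Confluent and 2456.5, 3674.0, 2907.7 and 3401.6 on Subconfluent arrays. The groups did not overlap, and Txnrd1 rose 2.11-fold (log2 difference 1.07 ± 0.23, SE, adjusted p = 0.0253), higher in 4 of 4 experiments. Txnip, which binds and inhibits thioredoxin, read 1295.2, 718.1, 616.3 and 619.6 on Confluent and 258.7, 371.0, 405.3 and 390.6 on Subconfluent arrays. It fell 2.05-fold without overlap (-1.04 ± 0.24, adjusted p = 0.0315), lower in 4 of 4 experiments. Experiment 1 gave the largest Txnip difference, -2.12, and the other experiments -0.87, -0.55 and -0.60. Without experiment 1 it was -0.67 (adjusted p = 0.0692 in limma without a block). Sesn1, a sestrin that takes part in stress signalling, fell from 301 ± 73.1 to 134 ± 11.9 (SD, n = 4 each), lower in 4 of 4, with a log2 difference of -0.91 (adjusted p = 0.0295).

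Txn1, cytosolic thioredoxin itself, had a log2 difference of 0.63 (adjusted p = 0.112) and passed with the block (0.00539), with means of 8278 on Confluent and 12684 on Subconfluent arrays and higher values in 4 of 4 experiments. Srxn1, sulfiredoxin, which repairs over-oxidised peroxiredoxins, had -0.49 (adjusted p = 0.130) and passed with the block (0.0330), with means of 447 and 304. That call was kept without pair 2 (adjusted p = 0.0436) and lost without pair 1 (0.0952), pair 3 (0.136) or pair 4 (0.105). Nxn, nucleoredoxin, singled out after its values were seen, had -0.89 (adjusted p = 0.131, with the block 0.0106).

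On the glutathione and NADPH side, which feeds Gpx1 and the reductases, 1 of 14 tested genes rose and 2 fell (1 and 3 with the block). Gclm, the modifier subunit of the ligase that limits glutathione synthesis, read 437.4, 817.4, 638.4 and 553.6 on Confluent and 1100.2, 1338.8, 1272.7 and 909.9 on Subconfluent arrays. The groups did not overlap, and Gclm rose 1.84-fold (0.88 ± 0.20, adjusted p = 0.0308), higher in 4 of 4. Idh1, the NADPH-making isocitrate dehydrogenase of cytosol and peroxisomes, read 516.4, 588.7, 788.7 and 964.6 against 329.5, 302.9, 413.1 and 349.4, and fell 1.88-fold (-0.91 ± 0.20, adjusted p = 0.0279). Nnt, the transhydrogenase that makes NADPH in mitochondria, where Prdx3 draws on it, read 1748.3, 1441.0, 1888.0 and 1539.8 against 1009.4, 787.3, 1048.9 and 1158.4. It fell 1.63-fold (-0.70 ± 0.16, adjusted p = 0.0321), again with no overlap and lower in 4 of 4. Idh2, the mitochondrial isocitrate dehydrogenase that makes NADPH, had -0.55 (adjusted p = 0.133, with the block 0.0231), a call lost on leaving out any of the 4 pairs (0.0528 to 0.0895). Pgd, a pentose phosphate enzyme, had 0.51 (adjusted p = 0.173, with the block 0.0737).

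Each of these 6 calls was lost in the fit without a block when some single arrays were left out, with adjusted p up to 0.0822. Txnrd1 lost it in 3 of 8 such fits (without Confluent 3, Subconfluent 2 or Subconfluent 4), Txnip and Idh1 in 5, Sesn1 in 6 and Gclm and Nnt in 7. Each kept its direction, which these fits could not change because the groups of all 6 genes do not overlap. All 6 passed with the experiment as a block, with adjusted p from 0.00295 to 0.0210.

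Copper and selenium supply, which Sod1, Sod3 and Gpx1 need, had 0 of 8 tested genes called in either direction without a block. With it Sephs2, which makes the selenium donor for selenoproteins, was higher (0.57, adjusted p = 0.0215, without the block 0.0976), a call kept without pair 2 (0.0341) and lost without pair 1 (0.0784), pair 3 (0.0892) or pair 4 (0.0565). The copper transporter Atp7a had -0.45 (adjusted p = 0.164 without the block and 0.0619 with it). Among oxidant sources 0 of 7 passed without a block and 2 were lower with it, against 11.3 percent of all tested probe sets. Xdh, xanthine dehydrogenase, which can release superoxide, read 3551.6, 1114.4, 2492.1 and 3506.1 on Confluent and 336.8, 150.7, 1258.4 and 1432.5 on Subconfluent arrays, lower in 4 of 4 experiments. The groups overlap at Confluent 2, and the log2 difference was -1.99 ± 0.60 (adjusted p = 0.0684, with the block 0.00575). Sqor, the sulfide quinone oxidoreductase of mitochondria, had -1.16 (adjusted p = 0.0511, with the block 0.00867). Of 7 peroxisome assembly genes, which build the organelle that holds catalase, 0 passed without a block. With it Pex7, an import receptor, was lower (-0.86, adjusted p = 0.0156, without the block 0.0739), a call lost without pair 1 (0.0689). Pex11a, which acts in peroxisome division, had -0.46 (adjusted p = 0.201 without the block and 0.0794 with it). These lists had median log2 differences of -0.05 (copper and selenium), -0.37 (oxidant sources) and -0.10 (peroxisome assembly), and the thioredoxin and glutathione sides -0.01 and 0.22.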

How the data were processed

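RNA was measured on 8 single-colour Affymetrix mouse arrays. Per the labels, the authors computed a signal for each probe set with Affymetrix's statistical algorithm, on a linear scale brought to a target of 500 on every array; software versions are not given in the sources used here. They were used without further normalization. The 66 control probe sets were left out of tests. GEO's platform annotation gave 1 gene symbol for 10833 of the other 12422 probe sets, several for 396 and none for 1193, and only the first kind was named.

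Log2 (signal + 50) of probe sets with a mean of at least 200 was tested with limma 3.58.1 in R 4.3.3 (lmFit, eBayes with trend, two-sided, 6 residual degrees of freedom, no block), with Benjamini-Hochberg adjustment over 6007 probe sets and a threshold of 0.05. The script was tested on simulated data. Tables and plots used Python 3.11.15, pandas 2.3.3 and matplotlib 3.10.9. The number of arrays limits the precision.

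The labels number both groups as experiments 1 to 4. Deviations from the group means correlated at 0.348 to 0.516 between arrays of the same number and at most at 0.0681 between others, so the numbers pair the arrays, and a fit with them as a block (3 residual degrees of freedom) was also run. Further alternatives were the pseudocount, the filter, the scaling, chip lots, array weights, the scale factor, and leaving out arrays or pairs.

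The members and lists were chosen with earlier results of these data known. Named were all members, in each list the genes that passed and the 2 next by p, and the 3 genes most correlated with the member of smallest p (Prdx3). Genes with several probe sets were represented by the brightest one. The F test of the experiment, the fit without experiment 1, the genes and probe sets like Sod1 or Sod2, and the use of control probe sets were added after the values were seen. Promoter windows are from RefSeq (GRCm38.p6).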

Additional observations from a re-analysis of the deposited data

Results flagged for a closer look

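In groups of 4 arrays the highest or lowest value was checked against its neighbours by Dixon's test, in 54 groups of the family and the named redox genes, and 3 stood apart, where chance alone gives about 1 group in 20. Sod2 was at 328.0 on Subconfluent 2, the only array of chip lot D, below 626.1 to 668.7 on the other Subconfluent arrays. Txnip was at 1295.2 on Confluent 1, above 616.3 to 718.1 on the other Confluent arrays. Srxn1 was at 326.0 on Confluent 2, below 473.4 to 503.5 on the other Confluent arrays.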

How the results depend on the processing

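Counts of calls and the sign of small differences moved with the processing, and where no value shows a cause, the cause was not tested. Prdx3 was higher under all 27 alternatives (limma adjusted p 0.0370 to 0.440 outside the single lots). Sod2 was lower under all 27 (0.0221 to 0.230 outside the single lots). Their groups do not overlap, so leaving out arrays or pairs could not change these signs. Among members, 1 was higher with the replicate block, with it without pair 1, and with array weights (Prdx3 each time), and 1 was lower with the block and with it without pair 3 (Sod2); the count was 0 when single arrays were left out, and the block changed no other member's call. Over all probe sets, 165 higher and 244 lower became 597 and 679 with the block, 258 higher in it without pair 1, 652 and 618 without pair 2, and 367 and 413 lower without pairs 3 and 4. They became 72 and 136 with no filter (12422 tests), 368 higher with the lot as a fixed block, 453 and 485 with it as a random block, 2 and 3 in lot C alone (3 arrays), 311 higher with array weights, and 31 and 98 without experiment 1. Median centring gave 237 higher and 211 lower. Without single arrays they ran from 18 to 342 higher and 80 to 345 lower. For the redox lists, 2 higher and 4 lower became 4 and 10 with the block, 4 and 7 without pair 1, 4 and 10 without pair 2, 7 lower without pair 3, 8 lower without pair 4, 1 and 0 with no filter, 4 higher with the lot as a fixed and 4 and 7 as a random block, 0 and 0 in lot C, 8 lower with the scale factor as a covariate, 1 and 1 without experiment 1, and 0 to 3 and 0 to 6 without single arrays. Log2 differences near 0 changed sign. Prdx2 100331_g_at was 0.016 with median centring, 0.012 and 0.036 with the block without pairs 2 and 4, 0.060 and 0.0080 with a fixed or random block of lots, and -0.084 to 0.034 without single arrays. Prdx4 was -0.18 with the block without pair 1 and without experiment 1, -0.15 in lot C, -0.055 with array weights, and -0.10 to 0.16 without single arrays. Cat was -0.10 and -0.038 with the block without pairs 2 and 4, -0.33 and -0.069 with a fixed or random block of lots, -0.48 in lot C, and -0.059 to 0.20 without single arrays. Sod1 ran from -1.06 to 0.39 without single arrays, and Pex11a was 0.028 in lot C. Weak probe sets, such as that of Prdx2 at 2.3 to 10.3, carry no usable difference.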
